A study of Rattus norvegicus with 38 samples.

Results

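The aryl hydrocarbon receptor (AhR) pathway and cytochrome P450 family 1 were followed as 7 genes through 38 RNA sequencing libraries of rat liver. They are Cyp1a1, Cyp1a2, Cyp1b1, Ahr, Arnt, Ahrr and Tiparp, taken by symbol, 7 of the 31038 gene names in the count table. All 7 were found, and 6 of them passed the filter on low counts that left 14786 genes for testing. Ahrr did not pass.

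The livers came from Sprague-Dawley rats, an outbred laboratory strain, killed on day 28. Extracts named EF, PF and RD in the labels, with no further identity given, were put into the stomach at 2.5 g/kg for EF, 2.5 g/kg for PF and 200 mg/kg for RD. Lipopolysaccharide (LPS), a component of the outer membrane of gram-negative bacteria, was injected into the peritoneal cavity. The groups are LPS_EF_PF (LPS, EF and PF, n = 4), LPS_EF_RD (LPS, EF and RD, n = 5), LPS_EF (LPS and EF, n = 5), LPS (LPS and no extract, n = 5), EF_PF (EF and PF, n = 5), EF_RD (EF and RD, n = 4), EF (EF alone, n = 5) and control (n = 5). PF and RD were given with EF in each case, so what either does alone was not measured. The sources used here do not give the dose and timing of LPS, the vehicle, or the sex and age of the animals. Samples of a group are biological replicates by the design text. Nothing else ties them to separate cages or days of dosing, so the p-values measure the spread between these livers.

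AhR is a receptor in the cytoplasm that binds flat aromatic compounds, among them dioxins, plant flavonoids and indoles, and products of tryptophan breakdown. Once it has bound a ligand it enters the nucleus, pairs with Arnt and activates genes whose control regions carry the short xenobiotic response element, and the Cyp1 genes are the best known of these. Ahrr and Tiparp are themselves AhR targets and hold the receptor back, Ahrr by competing for Arnt and Tiparp by ADP-ribosylating AhR. In liver, Cyp1a2 is a constitutive enzyme of hepatocytes around the central vein, while Cyp1a1 is low until the receptor is activated.

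The libraries held 19716622 to 35835012 counted read pairs, and mitochondrially encoded genes took 3.08% to 4.52% of them. The cell type in the labels is hepatocyte and the tissue liver. The 14 hepatocyte markers summed to between 148842 and 225763 CPM per library, read pairs scaled to a common library total, and all 14 were tested. Markers of other liver cells were present as well: the 13 Kupffer cell and macrophage markers summed to 289 to 1449 CPM and the 13 endothelial markers to 208 to 661 CPM, so the values are those of whole liver tissue. In such bulk samples, fewer cells of a type and less RNA per cell cannot be told apart. Several libraries stood apart. The library EF_RD 1 held 4756 CPM of 14 skeletal muscle markers, LPS 3 held 468 CPM of the same markers and 1942 CPM of 13 exocrine pancreas markers, and control 5 held 3348 CPM of the pancreas markers. In the other 35 libraries muscle markers summed to 0.805 to 2.73 CPM and pancreas markers to 5.19 to 21.4 CPM. The 15 neutrophil and monocyte markers summed to 100 CPM in LPS_EF 7 and 129 CPM in LPS_EF_RD 6, against 254 to 497 CPM in the other 17 LPS-treated libraries and 27.4 to 176 CPM in the 19 libraries without LPS. For several results that rest on these libraries, values without them are given as well.

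The genes lie on 4 rat chromosomes. By the annotation named in the count table's header, build rn6, Cyp1a1 (chr8:62472087-62478122, plus strand) and Cyp1a2 (chr8:62451360-62458244, minus strand) are neighbours on opposite strands. Ahr (chr6:54963990-55001806) and Cyp1b1 (chr6:2308179-2316739) share chromosome 6, Arnt (chr2:196594178-196651486) and Tiparp (chr2:157316293-157342979) share chromosome 2, and Ahrr is on chromosome 1 (chr1:31603297-31698329). The submitters' processing notes name another build, mRatBN7.2, so these positions are as the header gives them. Upstream sequence of 250 bases was matched by symbol for 6 of the 7 genes in RefSeq's tables of the build GRCr8, a different build from that of the counts. The windows of the constitutive Cyp1a2, of Cyp1b1 and of the repressor Ahrr are shown because they span the range found for the core of the xenobiotic response element, GCGTG, searched on both strands and marked in capitals (CACGC is the same core on the other strand). They are the 250 bases before the annotated start, written 5′ to 3′ on the gene's strand, at chr8:66978150-66978399 (minus strand) for Cyp1a2, chr6:21094315-21094564 (plus strand) for Cyp1b1 and chr1:30821969-30822218 (plus strand) for Ahrr.
Cyp1a2: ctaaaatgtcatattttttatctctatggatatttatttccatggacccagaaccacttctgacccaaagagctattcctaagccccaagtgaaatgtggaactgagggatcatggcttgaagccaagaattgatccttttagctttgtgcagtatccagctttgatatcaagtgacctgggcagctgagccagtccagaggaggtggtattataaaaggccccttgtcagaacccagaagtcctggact
Cyp1b1: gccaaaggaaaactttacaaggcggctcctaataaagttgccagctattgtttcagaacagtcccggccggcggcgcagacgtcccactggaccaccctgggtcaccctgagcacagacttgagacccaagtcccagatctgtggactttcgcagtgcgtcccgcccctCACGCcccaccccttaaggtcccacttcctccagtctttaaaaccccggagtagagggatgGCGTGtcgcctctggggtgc
Ahrr: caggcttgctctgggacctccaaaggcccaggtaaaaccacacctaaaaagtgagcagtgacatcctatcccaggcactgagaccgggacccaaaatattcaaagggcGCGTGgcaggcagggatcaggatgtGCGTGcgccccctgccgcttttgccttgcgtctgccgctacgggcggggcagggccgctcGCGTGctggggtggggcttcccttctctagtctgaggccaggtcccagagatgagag
The Cyp1a2 window held 0 cores and a GC content of 44.0%. The Cyp1b1 window, with a GC content of 59.2%, held 2, starting 81 bases before the start on the other strand and 20 bases before it on the printed strand. The Ahrr window, with a GC content of 62.0%, held 3, beginning 142, 117 and 57 bases before the start. Ahr held 0, Arnt held 1 and Tiparp held 1. The longer motif TNGCGTG, which contains the core, was found once in Cyp1b1 and once in Ahrr. Of 33469 rat promoter windows of the same length, 25.9% held at least 1 core, 2.58% held 3 or more and 4.09% held TNGCGTG. These matches describe the letters in these windows, and distant elements lie outside them.

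Levels between genes were compared in TPM, counts scaled by gene length and to a common total. Cyp1a2, which oxidises caffeine and aromatic amines, was the most abundant of the 7, with a median of 868 TPM over the 38 libraries and a range of 297 to 3138 TPM. Ahr had a median of 17.6 TPM (6.20 to 31.0), Arnt of 12.6 TPM (8.18 to 21.0) and Tiparp of 7.97 TPM (5.59 to 10.6). Cyp1a1, which oxidises polycyclic aromatic hydrocarbons, had the widest span, 0.153 to 142 TPM with a median of 1.94 TPM. Cyp1b1, the family member found mainly outside hepatocytes, reached 1.69 TPM at most with a median of 0.317 TPM. Ahrr was lowest, at a median of 0.0160 TPM and a highest value of 0.142 TPM.

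Cyp1a1 and Cyp1a2 were highest in the livers given EF and PF together without LPS. Cyp1a1 stood at 51.3, 40.0, 142, 121 and 75.8 TPM in EF_PF livers, against 1.06, 0.462, 1.14, 0.237 and 0.371 TPM in control livers. The lowest EF_PF liver was far above the highest control liver, and the groups did not overlap. With LPS the picture was of the same kind: 30.5, 31.4, 30.5 and 62.1 TPM in LPS_EF_PF livers, against 0.220, 0.270, 0.498, 0.895 and 0.431 TPM in LPS livers. Again no liver of one group reached the other.

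Cyp1a2 followed with smaller fold changes on a much higher base level. It stood at 2227, 2158, 3138, 2824 and 2107 TPM in EF_PF livers, against 297, 420, 476, 341 and 306 TPM in control livers, and at 1257, 1267, 1287 and 1717 TPM in LPS_EF_PF livers, against 497, 478, 352, 366 and 435 TPM in LPS livers. The groups of each pair were separate.

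**Figure D1:**
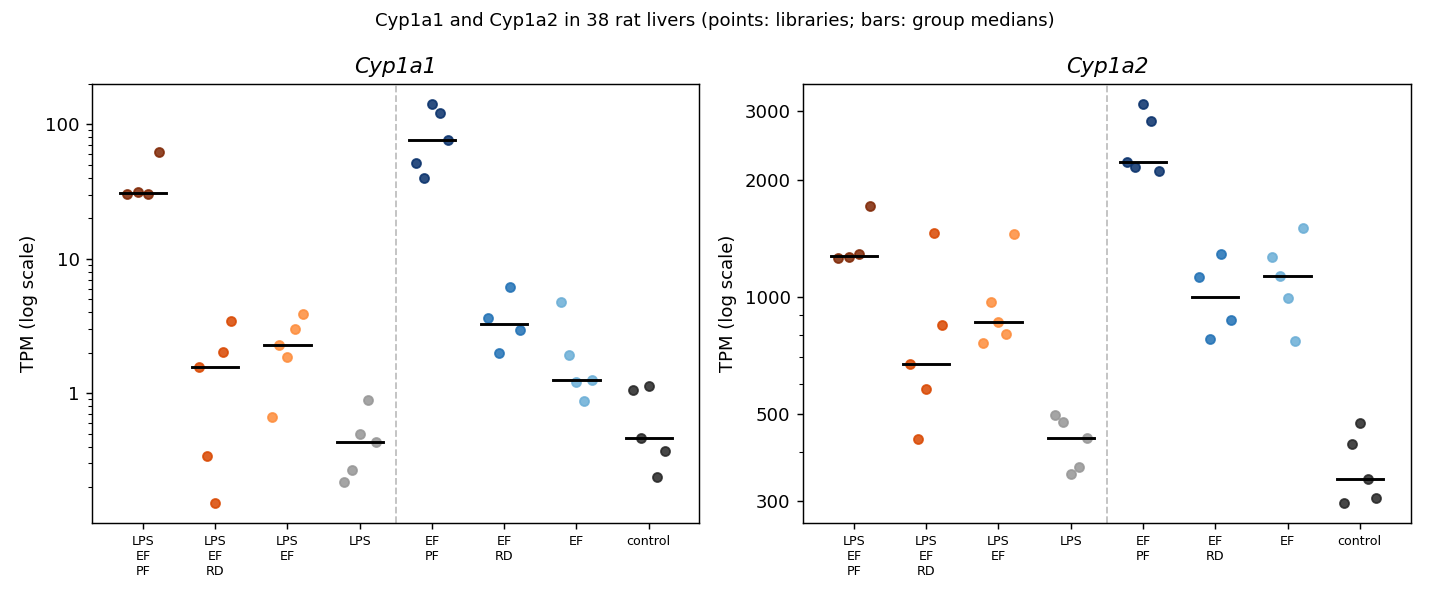
Deposited TPM of Cyp1a1 and Cyp1a2 on log axes in each of the 38 livers (points), by group, with a bar at each group's median. The LPS_EF_PF and EF_PF livers stand above all others for Cyp1a1, at 30.5 to 62.1 TPM and 40.0 to 142 TPM, and the EF_PF livers, at 2107 to 3138 TPM, stand above all others for Cyp1a2.

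In the fit across 14786 genes with edgeR's quasi-likelihood test, in which a gene was called at a Benjamini-Hochberg adjusted p under 0.05, 2 of the 6 tested members were called in EF_PF against control, where 0.622% of all genes were called. Cyp1a1 rose by a log2 fold change of 7.09 ± 0.63 (standard error; adjusted p = 1.22e-08, edgeR), a fold of 136, and had the lowest p of all genes. Cyp1a2 rose by 2.79 ± 0.27 (adjusted p = 3.08e-08, edgeR), a fold of 6.90, and had the next lowest. In LPS_EF_PF against LPS, where 0.0406% of genes were called, the same 2 members were called: Cyp1a1 rose by 6.36 ± 0.64 (adjusted p = 2.94e-07, edgeR), a fold of 82.1, and Cyp1a2 by 1.65 ± 0.26 (adjusted p = 0.00227, edgeR), a fold of 3.14. All 4 of these calls held under every alternative run and without any single library.

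Against EF alone, which carries the same extract without PF, Cyp1a1 was again far higher with PF. Cyp1a1 stood at the EF_PF levels above, against 4.79, 1.91, 1.21, 0.874 and 1.25 TPM in EF livers, and was 5.45 ± 0.57 higher on the log2 scale (adjusted p = 6.07e-07, edgeR), a fold of 43.7. It was the 1 member called in that comparison, in which 0.162% of genes were called. Cyp1a2 was higher in every EF_PF liver than in any EF liver (1269, 1133, 995, 773 and 1505 TPM in EF), with a log2 fold change of 1.10 ± 0.25 whose adjusted p was 0.0636 in edgeR. DESeq2 put that difference at an adjusted p of 0.00351, and edgeR without the library EF 5, the highest EF liver, at 0.0405. With LPS, Cyp1a1 was the 1 gene of all 14786 called between LPS_EF_PF and LPS_EF, a share of 0.00676%. It was 3.93 ± 0.54 higher in LPS_EF_PF livers (adjusted p = 0.000365, edgeR), a fold of 15.3, against 0.663, 2.26, 1.86, 3.001 and 3.88 TPM in LPS_EF livers, and the groups did not overlap. DESeq2 gave Cyp1a1 no adjusted p there, with a log2 fold change of 3.95. Cyp1a2 overlapped between LPS_EF_PF and LPS_EF livers, with a log2 fold change of 0.40 ± 0.26 (adjusted p = 0.706, edgeR).

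With EF alone Cyp1a2 passed the test and Cyp1a1 did not. In EF against control, where 0.92% of genes were called, Cyp1a2 was the 1 member called, at the EF levels above and the control levels above with no overlap. It rose by 1.69 ± 0.26 (adjusted p = 2.73e-04, edgeR), a fold of 3.23, and ranked 8th by p among all genes. Cyp1a1 overlapped between the groups, with a log2 fold change of 1.64 ± 0.62 (adjusted p = 0.243, edgeR). Cyp1a1 rested on 329 read pairs in the 5 EF livers together and 106 in the 5 control livers, while Cyp1a2 had 139118 in EF and 43577 in control.

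With LPS, Cyp1a2 stood at 762, 972, 862, 805 and 1450 TPM in LPS_EF livers, above every LPS liver. It was the 1 member called in LPS_EF against LPS, among 0.108% of genes, with a rise of 1.25 ± 0.25 (adjusted p = 0.0436, edgeR), a fold of 2.38. That call was lost without LPS_EF 7, the highest LPS_EF liver and the one low in neutrophil markers (1.06, adjusted p = 0.186), and also without LPS_EF 5 or without any 1 of the 5 LPS livers (adjusted p = 0.0540 to 0.160). Without LPS 3, EF_RD 1, LPS_EF 7 and LPS_EF_RD 6 together the log2 fold change was 0.989 (adjusted p = 0.0816). Cyp1a1 in LPS_EF against LPS had a log2 fold change of 2.43 ± 0.64 with an adjusted p of 0.125 in edgeR and of 0.0176 in DESeq2, and the libraries overlapped.

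With EF and RD both genes overlapped with EF alone and lay below EF with PF in every liver. Cyp1a1 stood at 3.64, 1.97, 6.16 and 2.92 TPM in EF_RD livers, above every control liver, and Cyp1a2 at 1123, 781, 1288 and 874 TPM, also above every control liver. Both were called in EF_RD against control, among 1.52% of genes: Cyp1a2 rose by 1.41 ± 0.26 (adjusted p = 0.00550, edgeR), a fold of 2.66, and Cyp1a1 by 2.45 ± 0.62 (adjusted p = 0.0357, edgeR), a fold of 5.46. The Cyp1a1 call was lost without any 1 of 6 of the 9 livers, namely control 3, 4, 6 or 7 and EF_RD 1 or 3, at adjusted p-values of 0.0592 to 0.0953. It was also lost in limma-voom (adjusted p = 0.129), and without the muscle-laden EF_RD 1 together with LPS 3 and control 5 it had a log2 fold change of 2.73 and an adjusted p of 0.0997. The number of all genes called in EF_RD against control also fell without those libraries, with the counts given below.

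Between EF_RD and EF, 0 of the 6 members were called by edgeR, and 0.724% of genes were. Cyp1a1 differed by 0.81 ± 0.55 and Cyp1a2 by -0.28 ± 0.26 on the log2 scale, with overlapping libraries. DESeq2 and limma-voom called neither. A single member, Cyp1b1, had an unadjusted p under 0.05, beside 14.6% of all genes. Its log2 fold change was 1.61 ± 0.69 (adjusted p = 0.262, edgeR), and its 107 read pairs in EF_RD 1 compare with 18 to 20 in the other 3 EF_RD livers. Without EF_RD 1 the adjusted p of Cyp1b1 was 0.835 in edgeR. Over single omissions its log2 fold change was 0.493 to 2.59.

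With LPS, RD livers spread widely. Cyp1a1 stood at 1.57, 0.341, 0.153, 2.02 and 3.43 TPM in LPS_EF_RD livers and Cyp1a2 at 674, 431, 580, 1459 and 848 TPM, and both overlapped with LPS livers. In LPS_EF_RD against LPS, 0 of 6 members were called by edgeR, where 0.0135% of genes were. At an unadjusted p under 0.05, beside 7.64% of all genes, there were 2 members. These were Cyp1a2 (0.95 ± 0.25, adjusted p = 0.339, edgeR) and Cyp1a1 (1.74 ± 0.67, adjusted p = 0.509, edgeR), and neither passed in DESeq2 or limma-voom. The highest Cyp1a2 value was that of LPS_EF_RD 6, the other library low in neutrophil markers. Without that library the adjusted p of Cyp1a2 in LPS_EF_RD against LPS was 0.747 in edgeR. Over single omissions its log2 fold change there was 0.587 to 1.12. Between LPS_EF_RD and LPS_EF edgeR called 0 genes, a share of 0%, with 412 genes at an unadjusted p under 0.05; DESeq2 called 2 genes and limma-voom 0. None of the 6 members reached an unadjusted p under 0.05 in that comparison.

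**Figure D2:**
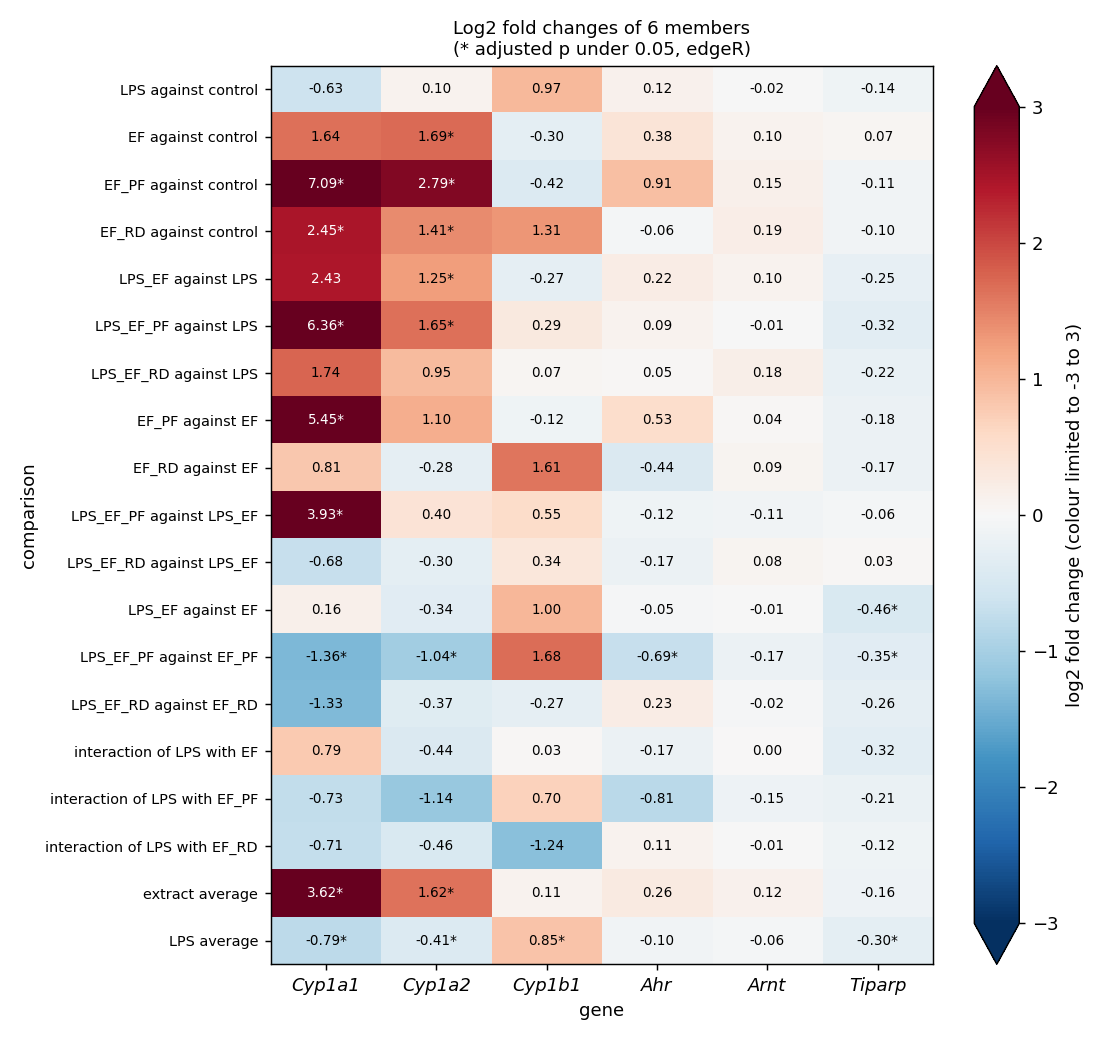
Log2 fold changes of the 6 tested members (columns) in the 19 comparisons (rows), from edgeR, with colour limited to 3 in either direction and an asterisk at an adjusted p under 0.05. The asterisks of the extract comparisons fall on Cyp1a1 and Cyp1a2, the Cyp1a1 values of EF_PF against control and LPS_EF_PF against LPS are 7.09 and 6.36, and Arnt has no asterisk.

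Averaged over LPS and no LPS, the groups given EF, alone or combined, were set against the groups without extract. Cyp1a1 rose by 3.62 ± 0.40 (adjusted p = 4.54e-07, edgeR) and Cyp1a2 by 1.62 ± 0.16 (adjusted p = 7.42e-08, edgeR), and these 2 of 6 members were called, among 3.06% of genes. Both stayed called under every alternative run and without any single library. The pairwise comparisons share their control or LPS livers, so their values stand side by side and are not independent of each other.

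The order of group means was alike for both enzymes at the top. For Cyp1a1 it ran EF_PF (86.1 ± 44.2 TPM, standard deviation), LPS_EF_PF (38.6 ± 15.7), EF_RD (3.67 ± 1.79), LPS_EF (2.33 ± 1.21), EF (2.01 ± 1.6) and LPS_EF_RD (1.503 ± 1.34), with LPS (0.463 ± 0.267) and control (0.653 ± 0.414) lowest. Each group overlapped with its neighbours in that order, with 1 exception: the lowest LPS_EF_PF liver was above the highest EF_RD liver. For Cyp1a2 it ran EF_PF (2491 ± 463 TPM), LPS_EF_PF (1382 ± 224), EF (1135 ± 277), EF_RD (1017 ± 232), LPS_EF (970 ± 279) and LPS_EF_RD (798 ± 399), with LPS (426 ± 65.0) and control (368 ± 77.7) lowest. There the gap lay between EF_PF and LPS_EF_PF, and the other neighbours overlapped.

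In the groups with PF the fold change of Cyp1a1 was larger than that of Cyp1a2, and the balance of the 2 transcripts was different. A larger fold of Cyp1a1 was also seen without PF. The folds of Cyp1a1 and Cyp1a2 were 5.46 and 2.66 in EF_RD against control and 5.38 and 2.38 in LPS_EF against LPS. They were 3.35 and 1.93 in LPS_EF_RD against LPS, while in EF against control they were 3.12 and 3.23. Cyp1a1 was called by edgeR in EF_RD against control and not in the other comparisons without PF listed here. Whether the folds of the 2 genes differ was not tested. The ratio of Cyp1a2 to Cyp1a1 TPM had a median of 40.8 (27.6 to 42.2) in LPS_EF_PF, 721 (247 to 3788) in LPS_EF_RD, 429 (268 to 1149) in LPS_EF, 1010 (409 to 2261) in LPS, 27.8 (22.04 to 54.0) in EF_PF, 304 (209 to 396) in EF_RD, 823 (265 to 1203) in EF and 824 (280 to 1437) in control. The ranges of both PF groups lay below those of the 6 other groups. Cyp1a2 remained the more abundant transcript in every liver, and at the low Cyp1a1 levels of control and LPS livers the ratio rests on few Cyp1a1 reads.

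**Figure D3:**
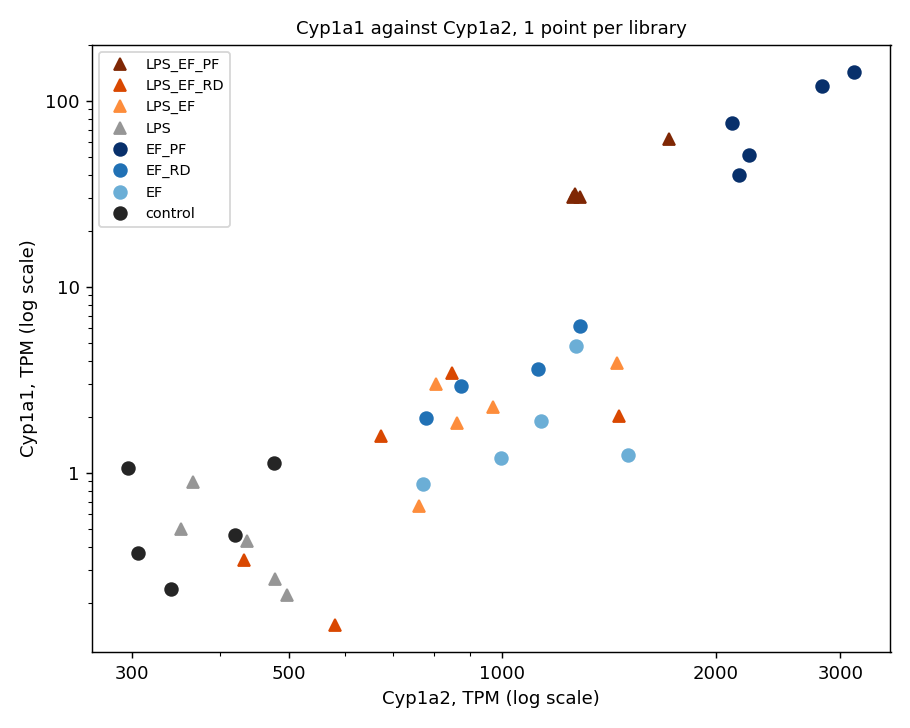
Cyp1a1 (vertical axis) against Cyp1a2 (horizontal axis), deposited TPM on log axes, with 1 point per liver and the group given by colour and shape. The 9 livers given EF and PF form the cloud at the top, at 30.5 TPM of Cyp1a1 or more, and the other 29 lie at 6.16 TPM or less.

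Cyp1a1 and Cyp1a2 were also compared liver by liver within groups. After each group's mean of log2 CPM was subtracted, Pearson's r over the 38 libraries was 0.570 (permutation p = 0.00739, adjusted over the 21 pairs of members 0.0776) and Spearman's rho was 0.560 (permutation p = 0.00264, adjusted 0.0554). Without the 2 libraries farthest from the median r was 0.563. None of the 21 pairs had an adjusted p under 0.05. On log2 TPM r was 0.577 (adjusted p = 0.0539).

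With LPS alone no tested member passed the test. In LPS against control, 0 of the 6 tested members were called by edgeR, against 36.8% of all genes. At an unadjusted p under 0.05 there were 0 of the 6, against 45.6% of all genes. DESeq2 and limma-voom called neither Cyp1a1 nor Cyp1a2. Cyp1a1 had a log2 fold change of -0.63 ± 0.73 (adjusted p = 0.533, edgeR) and Cyp1a2 of 0.10 ± 0.25 (adjusted p = 0.789, edgeR), with overlapping libraries.

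In livers that had received EF and PF, LPS came with lower levels of both enzymes. In LPS_EF_PF against EF_PF 4 of the 6 tested members were called, all of them lower, where 36.5% of genes were called. Cyp1a2 was 1.04 ± 0.27 lower on the log2 scale in LPS_EF_PF livers (log2 fold change -1.04, adjusted p = 0.00298, edgeR), and the groups did not overlap. Cyp1a1 had a log2 fold change of -1.36 ± 0.50 (adjusted p = 0.0321, edgeR), with LPS_EF_PF 6 above 2 of the EF_PF livers. Ahr, the receptor, changed by -0.69 ± 0.26 (adjusted p = 0.0388, edgeR), without overlap in CPM and with overlap in TPM, and Tiparp by -0.35 ± 0.12 (adjusted p = 0.0280, edgeR). Over 9 single omissions in edgeR, the Ahr call was lost in 6 (adjusted p up to 0.114) and the Tiparp call in 4 (up to 0.0821). Scaling by the total count in place of the trimmed mean moved the median gene of this comparison by 0.166 on the log2 scale. Under it Cyp1a2 alone of the 4 called members kept its call. Under that scaling the values were -1.17 for Cyp1a1 (adjusted p = 0.0649), -0.53 for Ahr (adjusted p = 0.130) and -0.18 for Tiparp (adjusted p = 0.249). The same change of scaling moved the median gene by 0.130 in LPS against control, 0.115 in LPS_EF_PF against LPS_EF and 0.107 in the average over LPS.

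Fewer members were called with LPS in livers given EF alone or EF with RD. In LPS_EF against EF 1 of 6 members was called, Tiparp, where 29.1% of genes were called. Tiparp stood at 7.32, 7.04, 5.59, 6.04 and 8.07 TPM in LPS_EF livers, against 8.28, 9.23, 10.5, 8.71 and 7.44 TPM in EF livers, and on the CPM scale of the test no LPS_EF liver reached an EF liver (-0.46 ± 0.12, adjusted p = 0.00330, edgeR). Cyp1a2 differed by -0.34 ± 0.25 there (adjusted p = 0.318, edgeR) and Cyp1a1 by 0.16 ± 0.53 (adjusted p = 0.853, edgeR). In LPS_EF_RD against EF_RD 0 of 6 members were called by edgeR, where 23.5% of genes were. Beside 36.4% of all genes, 2 of 6 members had an unadjusted p under 0.05. These were Cyp1a1 (-1.33 ± 0.57, adjusted p = 0.0845, edgeR; -2.02 with adjusted p = 0.0366 in limma-voom) and Tiparp (-0.26 ± 0.12, adjusted p = 0.122, edgeR). Without LPS 3, EF_RD 1, LPS_EF 7 and LPS_EF_RD 6, Cyp1a2 passed in both of these comparisons, at -0.53 (adjusted p = 0.0488) for LPS_EF against EF and -0.69 (adjusted p = 0.0274) for LPS_EF_RD against EF_RD.

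Whether LPS changed the genes differently with an extract than without was tested by interaction terms, and 0 of 6 members were called in any of the 3. The share of all genes called was 0.108% for EF, 0.0812% for EF_PF and 0.128% for EF_RD. At an unadjusted p under 0.05 there were 0, 2 and 0 members, the 2 being Cyp1a2 (-1.14 ± 0.36, adjusted p = 0.600, edgeR) and Ahr (-0.81 ± 0.36, adjusted p = 0.988, edgeR) in the term for EF_PF. DESeq2 and limma-voom called neither of them. The lower Cyp1a2 of LPS_EF_PF against EF_PF is therefore not shown to differ from the contrast of LPS against control at the threshold over all genes.

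Averaged over the 4 extract conditions, LPS against no LPS called 4 of 6 members, where 61.4% of all genes were called. Tiparp was lower (-0.30 ± 0.06, adjusted p = 5.73e-05, edgeR), as were Cyp1a2 (-0.41 ± 0.13, adjusted p = 0.00603, edgeR) and Cyp1a1 (-0.79 ± 0.29, adjusted p = 0.0207, edgeR), while Cyp1b1 was higher (0.85 ± 0.33, adjusted p = 0.0287, edgeR). The share of members called was close to that of all genes. Without LPS 3 the Cyp1b1 value was 0.67 (adjusted p = 0.0718), and without LPS 3, EF_RD 1 and control 5 together the Cyp1a1 value was -0.74 (adjusted p = 0.0512).

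The receptor itself had its highest group mean in EF_PF. Ahr averaged 17.7 ± 2.84 TPM in LPS_EF_PF, 16.5 ± 1.75 in LPS_EF_RD, 17.8 ± 5.79 in LPS_EF, 16.2 ± 2.95 in LPS, 25.3 ± 4.63 in EF_PF, 13.6 ± 5.31 in EF_RD, 17.5 ± 6.64 in EF and 13.7 ± 5.23 in control. It stood at 26.9, 27.3, 19.0, 31.0 and 22.4 TPM in EF_PF livers, against 18.9, 10.96, 17.9, 14.5 and 6.20 TPM in control livers. Every EF_PF liver was above every control liver, the nearest pair by a small margin. The log2 fold change of 0.91 ± 0.25 had an adjusted p of 0.0801 in edgeR, of 0.0233 in DESeq2, and of 0.0414 in edgeR without control 3. In EF_PF against EF the log2 fold change of Ahr was 0.53 ± 0.25 (adjusted p = 0.386, edgeR), and the libraries overlapped.

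Arnt, the dimerisation partner, was called in 0 of the 19 comparisons by edgeR, and its group means lay between 11.6 and 13.95 TPM. Its highest value, 21.0 TPM, was in LPS_EF_RD 6 and its lowest, 8.18 TPM, in EF 5. Tiparp, a sensitive AhR target in many cell types, had an adjusted p over 0.05 in edgeR in each of the 10 comparisons between groups that differ in extract. Its group means lay between 6.81 TPM (LPS_EF) and 8.82 TPM (EF), and in EF_PF against control its log2 fold change was -0.11 ± 0.12 (adjusted p = 0.769, edgeR), beside the 7.09 of Cyp1a1. It had an unadjusted p under 0.05 in 2 of the 10, LPS_EF against LPS (-0.25 ± 0.12, adjusted p = 0.464, edgeR) and LPS_EF_PF against LPS (-0.32 ± 0.12, adjusted p = 0.634, edgeR), and in the extract average (-0.16 ± 0.07, adjusted p = 0.218, edgeR).

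**Figure D4:**
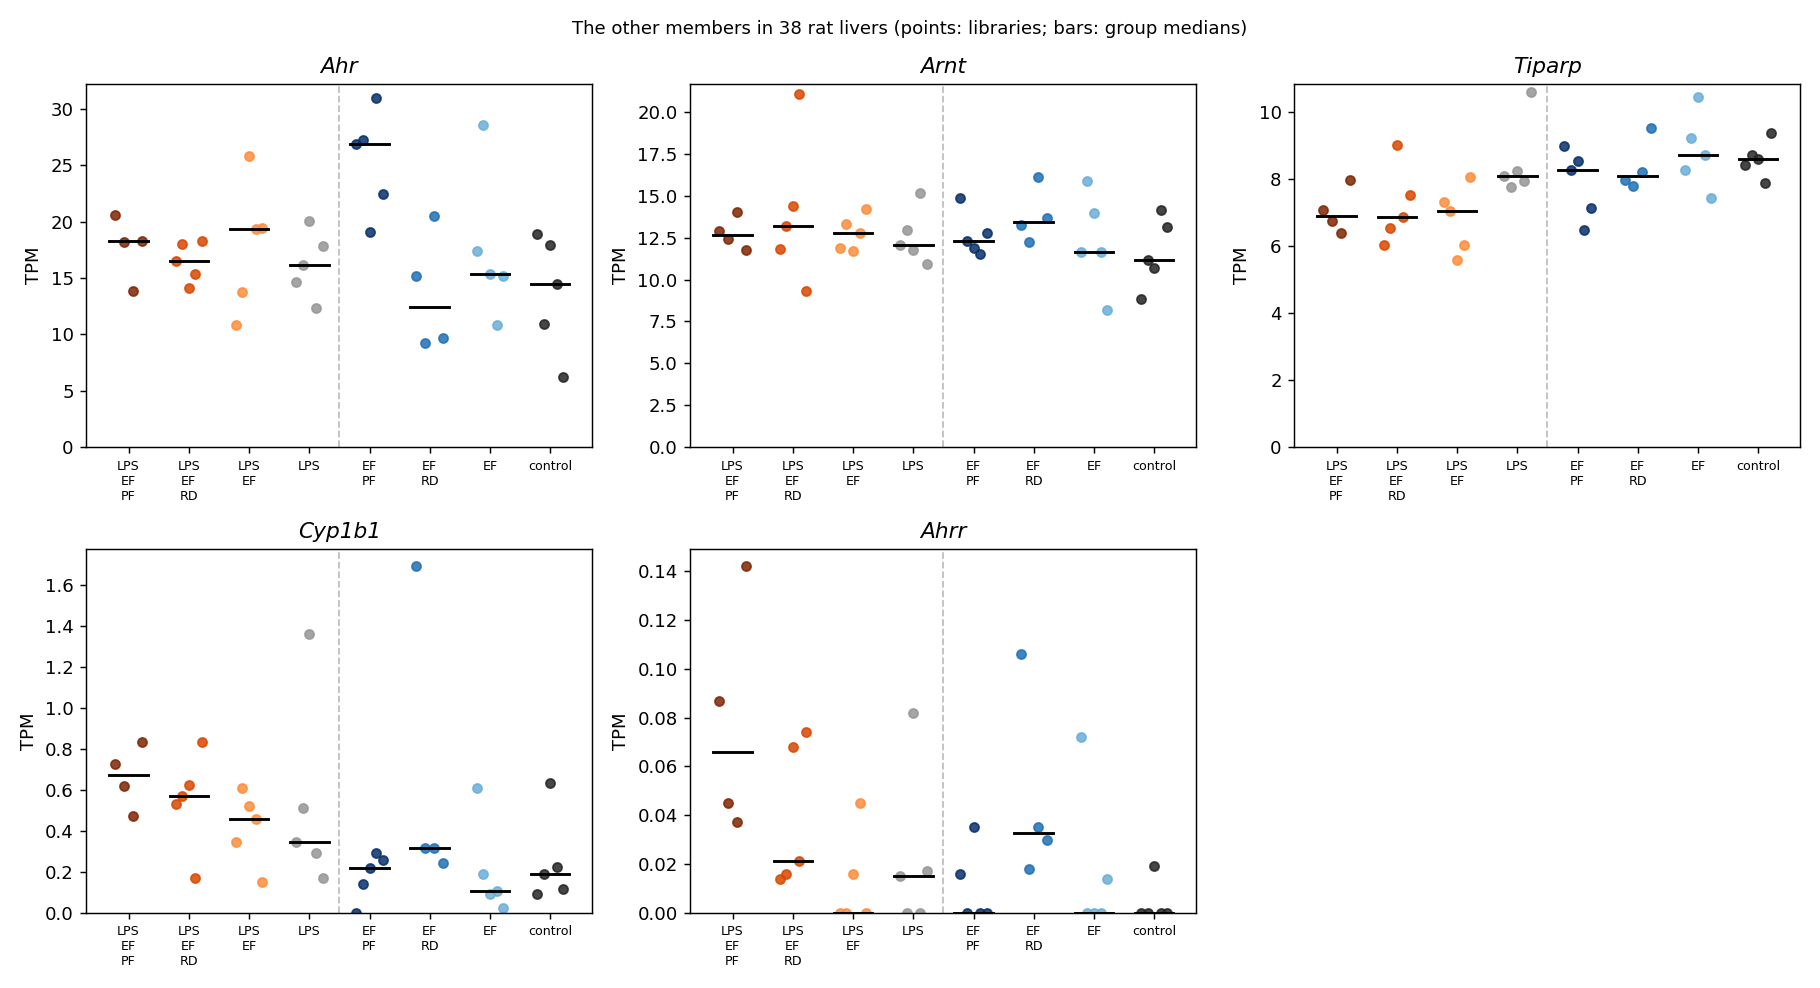
Deposited TPM of Cyp1b1, Ahr, Arnt, Ahrr and Tiparp in each of the 38 livers (points), by group, with a bar at each group's median. The median of Ahr is highest in EF_PF, where livers stand at 19.0 to 31.0 TPM and overlap with livers of other groups. Arnt and Tiparp stay within 8.18 to 21.0 TPM and 5.59 to 10.6 TPM, and single livers stand far above their groups for Cyp1b1.

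Ahrr, the repressor, gave 63 read pairs in the 38 libraries together, and 15 libraries had 0. Its totals were 21 in the 4 LPS_EF_PF livers, 11 in the 5 LPS_EF_RD livers, 4 in the 5 LPS_EF livers, 7 in the 5 LPS livers, 3 in the 5 EF_PF livers, 11 in the 4 EF_RD livers, 5 in the 5 EF livers and 1 in the 5 control livers. In exact two-sided permutation tests of log2 CPM over 14 comparisons of groups, the lowest p was 0.0238, for EF_RD against control and for LPS_EF_PF against EF_PF, where the smallest p the group sizes allow is 0.0159. Adjusted over the 14 comparisons the lowest value was 0.148. In EF_PF livers, where Cyp1a1 was highest, a difference of Ahrr from control was not detectable at this depth.

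Cyp1b1 was also scarce, at 0 to 107 read pairs per library. It was called in 0 of the 10 comparisons between groups that differ in extract by edgeR, and had an unadjusted p under 0.05 in 1 of them, EF_RD against EF. In 3 of the 8 groups the highest value was that of a liver with muscle or pancreas markers: 1.69 TPM in EF_RD 1, against 0.243 to 0.318 in the other EF_RD livers, 1.36 TPM in LPS 3, against 0.169 to 0.512 in the other LPS livers, and 0.634 TPM in control 5, against 0.0930 to 0.222 in the other control livers. In the EF group EF 1 was highest, at 0.610 TPM, against 0.0240 to 0.188 in the other EF livers, where muscle markers summed to 2.73 CPM and those of pancreas to 5.73 CPM. The stellate cell and fibroblast markers, 12 in number, were highest within their groups in EF_RD 1, LPS 3, control 5 and EF 1, at 1145, 1096, 718 and 669 CPM, against 395 to 458, 674 to 902, 375 to 566 and 308 to 407 CPM in the other livers of those groups. In LPS_EF and LPS_EF_PF too, the liver highest in Cyp1b1 TPM was the highest in these markers. In EF_PF and LPS_EF_RD it was not. The part of stellate cells and fibroblasts in the Cyp1b1 values was not tested. In LPS_EF_PF livers, none of which stood apart in muscle or pancreas markers, Cyp1b1 was at 0.728, 0.619, 0.470 and 0.833 TPM, against 0, 0.142, 0.220, 0.291 and 0.256 TPM in EF_PF livers. The groups did not overlap, with a log2 fold change of 1.68 ± 0.70 (adjusted p = 0.0569, edgeR), which passed in DESeq2 (adjusted p = 0.0414) and limma-voom (adjusted p = 0.0173). The stellate and fibroblast markers summed to 650 to 1000 CPM in LPS_EF_PF livers and to 316 to 436 CPM in EF_PF livers, so they were higher in the same livers, and their part in this difference was not tested either.

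**Figure D5:**
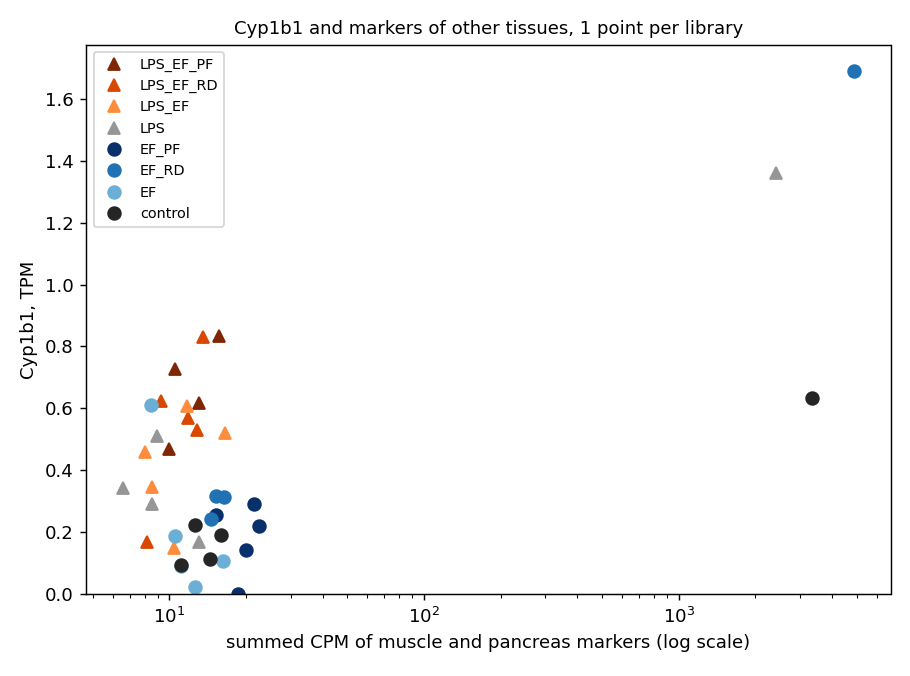
Cyp1b1 in TPM against the summed CPM of the skeletal muscle and exocrine pancreas markers on a log axis, with 1 point per liver. EF_RD 1, LPS 3 and control 5 lie far to the right, with 1.69, 1.36 and 0.634 TPM of Cyp1b1, each the highest of its group.

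In the wider set of AhR targets no gene was called for an extract group against control. Of 12 other AhR targets, 10 were tested. EdgeR called 0 in EF_PF, EF_RD or EF against control, where 0.622%, 1.52% and 0.92% of all genes were called. At an unadjusted p under 0.05 there were 6, 4 and 4 of the 10, beside 12.5%, 16.3% and 11.4% of all genes. The medians of the log2 fold change were 0.47, 0.24 and 0.39, beside -0.02, 0.01 and 0.01 for all genes. Nqo1, a quinone reductase driven by AhR and by Nrf2, averaged 62.3 ± 16.3 CPM in EF_PF, 48.5 ± 21.97 CPM in EF_RD and 55.9 ± 17.2 CPM in EF, against 30.2 ± 7.77 CPM in control. Its log2 fold changes were 1.04 ± 0.32, 0.68 ± 0.33 and 0.89 ± 0.32, with adjusted p-values of 0.117, 0.300 and 0.205 in edgeR. Ugt1a6, a glucuronosyltransferase of the classical AhR battery, averaged 29.1 ± 5.37 CPM in EF_PF, 15.6 ± 3.64 CPM in EF_RD and 24.2 ± 10.7 CPM in EF, against 19.6 ± 4.10 CPM in control, and was not called in these comparisons. Aldh3a1, the third gene of that battery, gave 186 read pairs in all libraries, 0 in 19 of them and 134 in the muscle-laden EF_RD 1, and was not tested. Averaged over LPS and no LPS, 1 of the 10 was called with extract, where 3.06% of all genes were, namely Cd36, a fatty acid transporter (1.14 ± 0.32, adjusted p = 0.0434, edgeR).

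With LPS the share of this list that was called was near that of all genes. In LPS against control, where 36.8% of all genes were called, 1 of 10 was higher, Nqo1 at 60.5 ± 28.2 CPM in LPS, against 30.2 ± 7.77 CPM in control (1.0 ± 0.32, adjusted p = 0.0127, edgeR). Another 2 of 10 were lower, Gsta2, a glutathione transferase (-1.06 ± 0.37, adjusted p = 0.0227, edgeR), and Ugt1a6 (-0.90 ± 0.27, adjusted p = 0.00856, edgeR). In the average over LPS, where 61.4% of all genes were called, 2 of 10 were higher and 4 lower, with Nqo1 at 0.57 ± 0.16 (adjusted p = 0.00296, edgeR) and Ugt1a6 at -1.03 ± 0.14 (adjusted p = 9.15e-08, edgeR) among them.

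The proteins that hold and assist the receptor were tested as a list of 11 chaperones, coactivators and turnover factors. Of these, edgeR called 0 in EF_PF, EF_RD or EF against control, where 0.622%, 1.52% and 0.92% of all genes were called. At an unadjusted p under 0.05 there were 1, 1 and 0, beside 12.5%, 16.3% and 11.4% of all genes. In EF_PF against EF, where 0.162% of all genes were called, 1 of 11 was lower, Ptges3, the p23 cochaperone of Hsp90 (-0.36 ± 0.08, adjusted p = 0.0453, edgeR). In LPS against control, beside 36.8% of all genes, 1 of 11 was higher, the coactivator Ncoa3 (0.68 ± 0.17, adjusted p = 0.00186, edgeR), and 2 were lower, Ptges3 (-0.37 ± 0.08) and the chaperone Hsp90ab1 (-0.26 ± 0.09). Of the other bHLH-PAS genes 2 of 4 could be tested, and the hypoxia factor Hif1a was called in the average over LPS, as were 61.4% of all genes (-0.14 ± 0.06, adjusted p = 0.0351, edgeR).

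The kynurenine pathway breaks tryptophan down and yields AhR ligands among its products. Of its 12 listed genes 11 were tested, and in LPS against control 2 were higher and 5 lower, beside 36.8% of all genes called, with a median of -0.45 beside -0.002 for all genes. Kynu, kynureninase, averaged 107 ± 59.9 CPM in LPS, against 256 ± 47.5 CPM in control (-1.26 ± 0.36, adjusted p = 0.00595, edgeR), and Kmo, the kynurenine monooxygenase, 86.7 ± 12.5 CPM, against 196 ± 20.0 CPM (-1.17 ± 0.21, adjusted p = 6.64e-05, edgeR). Ido2, an indoleamine dioxygenase, was higher (0.92 ± 0.24, adjusted p = 0.00261, edgeR). In the average over LPS 2 were higher and 8 lower, beside 61.4% of all genes called. EdgeR called 0 in EF_PF, EF_RD or EF against control, where 0.622%, 1.52% and 0.92% of all genes were called. There was 1 in each at an unadjusted p under 0.05, beside 12.5%, 16.3% and 11.4% of all genes.

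Electron donors and heme enzymes serve every microsomal P450. Of 8 such genes, 1 was higher and 4 were lower in LPS against control, beside 36.8% of all genes called. Hmox1, which breaks heme down, averaged 88.7 ± 53.1 CPM in LPS, against 22.8 ± 5.01 CPM in control (1.96 ± 0.52, adjusted p = 0.00374, edgeR), and Por, the P450 reductase, 182 ± 45.6 CPM, against 373 ± 159 CPM (-1.04 ± 0.36, adjusted p = 0.0225, edgeR). With extract 1 of 8 was called in the average, where 3.06% of all genes were, cytochrome b5 Cyb5a (0.32 ± 0.09, adjusted p = 0.0383, edgeR). Of 8 hepatocyte transcription factors of Cyp genes, 4 were lower in LPS against control and 0 higher, beside 36.8% of all genes called. Among them was Hnf4a at 360 ± 39.0 CPM in LPS, against 580 ± 71.7 CPM in control (-0.69 ± 0.14, adjusted p = 2.87e-04, edgeR). In EF_PF, EF_RD or EF against control edgeR called 0 of the 8, where 0.622%, 1.52% and 0.92% of all genes were called. At an unadjusted p under 0.05 there were 2, 2 and 1, beside 12.5%, 16.3% and 11.4% of all genes.

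Another xenobiotic axis, that of the receptors CAR and PXR, was called in part with extract. Of 18 genes 17 were tested. In EF against control, where 0.92% of all genes were called, 2 of 17 were higher, Cyp2b2, the classical CAR target, at 39.8 ± 18.7 CPM in EF, against 14.1 ± 3.79 CPM in control (1.496 ± 0.378, adjusted p = 0.0464, edgeR), and Cyp2c6v1 at 2071 ± 133 CPM, against 1292 ± 288 CPM (0.68 ± 0.15, adjusted p = 0.0170, edgeR). In EF_PF and EF_RD against control edgeR called 0, where 0.622% and 1.52% of all genes were called. At an unadjusted p under 0.05 there were 8 of 17 in each, beside 12.5% and 16.3% of all genes. In the average over LPS and no LPS 4 of 17 were higher with extract, where 3.06% of all genes were called, Cyp2b1 (1.99 ± 0.47), Cyp2b2 (1.37 ± 0.24), Cyp2a1 (0.48 ± 0.10) and Cyp2c6v1 (0.47 ± 0.09), and 0 were lower. Cyp2b1 and Cyp2b2 are near-identical neighbours whose shared reads were not counted, so the split between them is uncertain. With LPS the list was called mostly lower, 13 of 17 in the average and 3 higher, beside 61.4% of all genes called, with the steroid hydroxylase Cyp3a2 at -1.68 ± 0.17.

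The genes most like each enzyme across the 38 libraries were named by Spearman's correlation of log2 CPM among 10394 candidates, a description that shares library, group and depth between the points. For Cyp1a1 they were Aldh1a7 (0.664), Aldh1a1 (0.660), Gsta3 (0.656), the mitochondrially encoded ATP8 (0.637) and Atg10 (0.637). For Cyp1a2 they were Gsdmd (0.773), Gsta3 (0.731), Tyw1 (0.714), Cyp2a1 (0.698) and Cyp2b2 (0.698). Gsta3, a glutathione transferase, was on both lists, and it was 1.55 ± 0.28 higher with extract in the average over LPS and no LPS (adjusted p = 0.00120, edgeR). Aldh1a1 and Aldh1a7, aldehyde dehydrogenases, were 1.48 ± 0.31 and 1.39 ± 0.31 higher in the same average (adjusted p = 0.00503 and 0.0101, edgeR). Gsta3, Aldh1a1 and Aldh1a7 were picked for following Cyp1a1 or Cyp1a2 over these same libraries. Their values in the extract average are therefore no independent test. In EF_PF against EF, where Cyp1a1 rose by 5.45, edgeR called none of the 9 genes.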

How the data were processed

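RNA was sequenced from 38 livers in 8 groups, and each column of both tables took its sample from its name. The deposited counts are whole read pairs summed by gene symbol, made by the authors with featureCounts 2.0.6 on an rn6 RefSeq annotation, without a strand setting and without counting reads that map to several places, per the file headers. Reads of overlapping genes on opposite strands could not be told apart, and reads shared by near-identical copies were left out. STAR, RSEM and a second build, mRatBN7.2, appear in the submitters' processing notes. The deposited TPM values are the authors' length-scaled counts: recomputed from the counts for 31011 shared gene names, they differed by at most 0.0495% over the 432813 values of 1 TPM or more. No molecular identifiers are described, so precision from read counts covers counting error only.

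The test on counts was that of edgeR 4.0.16 (R 4.3.3), after filterByExpr (minimum count 10, minimum total 15) and scaling by the trimmed mean of M values, in 1 quasi-likelihood model with a mean per group over all 38 libraries. P-values are two-sided and adjusted by the Benjamini-Hochberg method over 14786 genes within each of 19 comparisons. CPM are scaled the same way. The edgeR fit was first tested on counts simulated for the control and EF_PF groups. Ahrr, below the filter, was tested by exact permutation over samples, and correlations by 100000 permutations within groups (log2 CPM with 0.1 added). The alternatives were DESeq2 1.42.0, limma-voom (limma 3.58.1), limma on log2(TPM + 0.1) or log2(TPM + 1), 2 other scalings, no filter, a block for the replicate number, only the groups compared, each library left out, and 4 libraries left out together. The omission of EF_RD 1, LPS 3 and control 5 together was chosen after seeing the data.

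The 7 genes and the lists were chosen with earlier results of these data known. Some listed genes are not reported here and were left out of the counts of their lists. All 7 genes are named in the text. From each list at most 4 called genes are named, those with the largest fold change whose higher group averaged 2 CPM or more, together with Nqo1, Aldh3a1 and Ugt1a6 whatever they did. The 5 genes most like Cyp1a1 and Cyp1a2 were ranked by Spearman's correlation.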

Additional observations from a re-analysis of the deposited data

Results flagged for a closer look

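In 11 of 56 sets of 1 gene in 1 group, a single liver lay farther from the rest than Dixon's test allows at the 95% level, and chance flags about 1 in 20 such groups. For Cyp1a1, EF 1 had 4.79 TPM while the other EF livers had 0.874 to 1.91 TPM. LPS_EF_PF 6 had 62.1 TPM of Cyp1a1 and 1717 TPM of Cyp1a2, while the other LPS_EF_PF livers had 30.5 to 31.4 TPM and 1257 to 1287 TPM, so the same liver was high in both enzymes.

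Cyp1b1 had 1 high liver in each of 4 groups. It stood at 1.69 TPM in EF_RD 1 (others 0.243 to 0.318), 1.36 TPM in LPS 3 (others 0.169 to 0.512), 0.634 TPM in control 5 (others 0.0930 to 0.222) and 0.610 TPM in EF 1 (others 0.0240 to 0.188). Ahrr was highest in LPS 3 at 0.0820 TPM (others 0 to 0.0170), EF 1 at 0.0720 TPM (others 0 to 0.0140) and control 5 at 0.0190 TPM (others 0), which are 5, 4 and 1 read pairs. EF 1 held 2.73 CPM of muscle markers, 47.2 CPM of the 8 cholangiocyte markers and 669 CPM of the stellate and fibroblast markers, each the highest of the EF livers. Its 5.73 CPM of pancreas markers was the lowest of them. Tiparp stood at 10.6 TPM in LPS 5, while the other LPS livers had 7.76 to 8.24 TPM.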

How the results depend on the processing

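Over 52 results for single genes, 12 alternatives gave 567 values of the same direction and call as reported, 29 that lost the call, 18 that gained it and 2 of the other sign. Leaving out 1 library gave 726, 29, 5 and 3. Below, 4 libraries are EF_RD 1, LPS 3, LPS_EF 7 and LPS_EF_RD 6, and 3 libraries are EF_RD 1, LPS 3 and control 5, the second set chosen after seeing the data. Cyp1a1 in EF_RD against control kept its direction and lost its call with the groups compared alone (2.44), in limma-voom (2.55), on log2(TPM + 0.1) with or without filter (2.39), on log2(TPM + 1) (1.46) and without 4 (2.46) or 3 (2.73) libraries, with 2.07 to 2.72 when 1 library was left out. Cyp1a2 in LPS_EF against LPS lost it with no low-count filter (1.25), with the groups compared alone (1.25), with a replicate block (1.04), on unfiltered TPM (1.16) and without 4 (0.989) or 3 (1.18) libraries, with 1.06 to 1.36 over single omissions. Cyp1a1 in LPS_EF_PF against EF_PF lost it under total-count scaling (-1.17), on log2(TPM + 0.1) with or without filter (-1.06) and in DESeq2 (-1.34), with -1.67 to -1.09 over single omissions, 5 of which lost the call. Cyp1a1 in the LPS average lost it on unfiltered TPM (-0.71) and without 3 libraries (-0.74). Calls were gained by DESeq2 for Cyp1a1 in LPS_EF against LPS (2.43) and Cyp1a2 in EF_PF against EF (1.10), and for the second without 4 libraries (1.10); single omissions gave it 1.0 to 1.31. The sign of 2 uncalled values turned: Cyp1a1 in LPS_EF against EF was -0.23 with the replicate block, -0.10 without 4 libraries and -0.10 to 0.74 over single omissions (-0.02 without EF 4), and Cyp1a2 in LPS against control was -0.0107 to 0.192 over single omissions. The cause was not tested. The within-group r of Cyp1a1 with Cyp1a2 was 0.508 to 0.619 over single omissions, and its adjusted p fell under 0.05 without EF 5, LPS 4 or LPS_EF_RD 4. By Pearson's correlation 3 of the 5 genes most like each enzyme stayed among the highest 5. Of the 42 same-numbered pairs of groups, 14 had a correlation of deviations over 0.1 (median 0.026), so the numbers were not taken to pair the livers, and the block changed the calls of Cyp1a2 named above, of Ahr in LPS_EF_PF against EF_PF (-0.52) and of Cyp1a1 in LPS_EF_RD against EF_RD (-2.04). Genes called in EF_RD against control were 225 as reported, 54 without 3 libraries and 409 in DESeq2; in EF_RD against EF 107, 12 and 221; in EF_PF against control 92, 117 and 246; in EF against control 136, 165 and 273; in EF_PF against EF 24, 20 and 173; in LPS_EF against LPS 16, 23 and 90; in LPS_EF_PF against LPS 6, 14 and 32; in LPS_EF_RD against LPS 2, 3 and 16; and in LPS_EF_PF against LPS_EF 1, 1 and 15. The interactions of LPS called 16, 18 and 29 genes for EF, 12, 26 and 32 for EF_PF and 19, 0 and 11 for EF_RD. Depth limits Ahrr, Cyp1b1 and the low Cyp1a1 of control and LPS livers.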

Other observations

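Genes of hepatocytes around the central vein, the zone where Cyp1a2 is normally made, were partly higher with EF. Of 10 such genes, all tested, 3 were higher and 0 lower in EF against control, where 0.92% of all genes were called: Slc1a2, a glutamate transporter (1.42 ± 0.31, adjusted p = 0.0170, edgeR), Cyp2e1, the ethanol-oxidising P450 (1.04 ± 0.24, adjusted p = 0.0222, edgeR), and Glul, glutamine synthetase (0.84 ± 0.17, adjusted p = 0.00826, edgeR). In EF_PF and in EF_RD against control edgeR called 0 of the 10, where 0.622% and 1.52% of all genes were called. At an unadjusted p under 0.05 there were 6 in each, beside 12.5% and 16.3% of all genes. All 6 were higher in EF_PF. In EF_RD, Rgn was lower (-0.40 ± 0.14, adjusted p = 0.137, edgeR) and the rest were higher. The medians of the log2 fold change were 0.55 in EF_PF, 0.52 in EF_RD and 0.81 in EF, beside -0.02, 0.01 and 0.01 for all genes. The summed level of the 10 genes was 4516 to 5561 CPM in EF_PF livers, 4240 to 5334 CPM in EF_RD livers and 5371 to 6636 CPM in EF livers, against 3282 to 4340 CPM in control livers. In the average of all groups with EF against those without, 4 were higher and 0 lower, beside 3.06% of all genes called, with Oat, ornithine aminotransferase, at 0.60 ± 0.14 (adjusted p = 0.0148, edgeR) as the fourth. Their part in the Cyp1a2 difference was not tested.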
